A study of Caenorhabditis elegans with 6 samples.

Results

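The *fbxc* genes are one of the numbered subfamilies of F-box genes in *C. elegans*. Their members were taken as the array probes whose sequence name belongs to a gene with an *fbxc* symbol in the RefSeq annotation. This gave 67 of 43603 probes, for 51 of the 56 *fbxc* genes annotated there. Of the 51 genes, 38 gave a signal well above background on each of the 6 arrays, and they were compared among 16050 genes in all. The subfamily was chosen by the values of this same comparison, in which its members had been seen to be higher with pRJ-Fr.5, so that the changes below are a description of its members and not a test of the subfamily.

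The arrays measured the whole-body RNA of wild-type N2 (Bristol) hermaphrodites that were given pRJ-Fr.5, a fraction of protease-treated royal jelly, at 25 µg/ml or were left untreated (0 µg/ml, control) for 24 h, beginning at L4, the larval stage before adulthood. The unit of the dose follows the study's methods, whereas the sample labels have 25 mg/ml. There were 3 arrays in each group, and the RNA of each array came from many pooled worms. The labels do not say whether the 3 samples of a group came from separate cultures, so that the spread between them may be technical.

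An F-box is a short protein motif that binds Skp1, the adaptor of a class of ubiquitin ligases. In such a ligase, called SCF, a cullin forms the scaffold, a RING subunit recruits the enzyme that carries ubiquitin, and the F-box protein holds the substrate that is to be marked. *C. elegans* has far more F-box genes than mammals, and most of them stand in families of near copies for which no substrate is known. The *fbxc* genes are of this kind, so that no role is given for single members here.

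The arrays were of unequal quality, and 1 array stood apart. Between 32820 and 34549 probes were well above background on 5 arrays and 27729 on control replicate 3. Of the 67 *fbxc* probes, 45 were above background on control replicate 3 and 56 or 57 on each of the others. The worms were whole bodies, and the markers of intestine, muscle, pharynx, neurons, hypodermis and germ line that had been listed were all above background, as were 2 of the 3 listed for sperm. Some of these lists moved with the treatment. The mean level of 4 hypodermis and cuticle markers was 1.39 to 1.49 on the control arrays and 0.47 to 0.73 on the pRJ-Fr.5 arrays, with 2 of the 4 genes past the threshold as lower. For the 2 sperm markers the means were 0.76 to 0.88 and 0.055 to 0.38, and both were past the threshold as lower. The array means of the 5 intestine markers overlapped between the groups, at 1.09 to 1.14 (control) and 1.12 to 1.26 (pRJ-Fr.5). Their median log2 fold change was 0.06, and 2 of the 5 were past the threshold as higher. Of all genes tested, 10.7% passed the threshold as higher and 19.1% as lower. None of the muscle, pharynx, neuron or germ line markers passed it. The part of these differences in the values of the *fbxc* genes was not tested. Whole-worm RNA does not show from which cells, or from what change in them, a marker difference came.

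Levels are given as the log2 of the signal of a probe relative to the 75th percentile of its array, and the level of a gene is the mean over its probes that were above background. Since probes differ in how well they bind their target, a level is comparable between arrays but not between genes. Of the 38 *fbxc* genes, 33 were higher on average with pRJ-Fr.5 and 5 were lower, where 54.4% of all genes tested were higher. The median log2 fold change was 0.34 over the *fbxc* genes and 0.03 over all genes. In limma's fit over all genes, 20 *fbxc* genes passed an adjusted p of 0.05 as higher, where 10.7% of all genes did, and 2 as lower, where 19.1% did. There was no overlap between the groups for 24 *fbxc* genes with pRJ-Fr.5 above (24.6% of all genes) and for 4 with pRJ-Fr.5 below (25.2% of all genes). The number called higher was 13 without control replicate 1 and 12 without pRJ-Fr.5 replicate 2. The number called lower was 1 in each of these fits. In the same fits 3096 and 2750 of all genes passed in either direction, in place of 4788 with all arrays.

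Of the 20 genes that rose, 15 had log2 fold changes above 0.5, between 0.54 and 0.89, and the other 5 lay between 0.24 and 0.46. The limit of 0.5 was set for description, and the values have no wide gap there. The 15 genes were *fbxc-9*, *fbxc-14*, *fbxc-18*, *fbxc-21*, *fbxc-22*, *fbxc-24*, *fbxc-25*, *fbxc-26*, *fbxc-28*, *fbxc-29*, *fbxc-31*, *fbxc-34*, *fbxc-39*, *fbxc-40* and *fbxc-51*. The 5 genes were *fbxc-38* (0.46), *fbxc-52* (0.29), *fbxc-46* (0.27), *fbxc-42* (0.27) and *fbxc-47* (0.24).

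**Figure D1:**
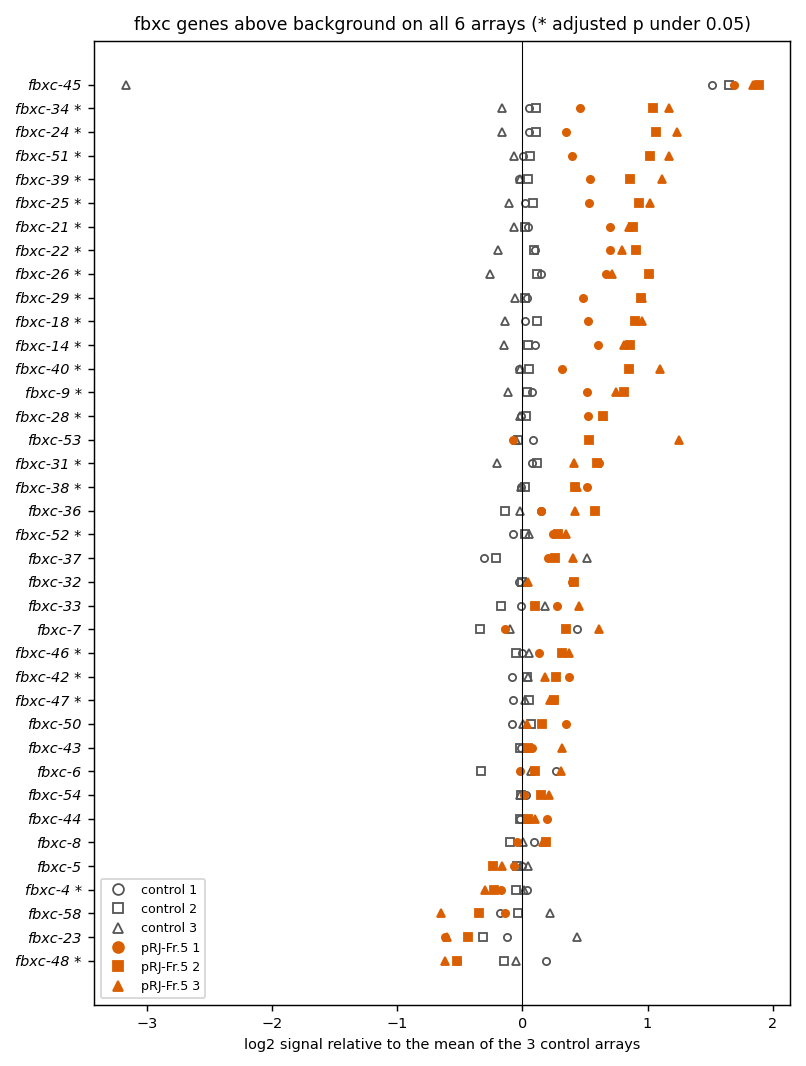
Each row is 1 of the 38 *fbxc* genes, ordered by log2 fold change, and each point is 1 array, plotted as its log2 signal minus the mean of the 3 control arrays of that gene (open gray symbols, control; filled orange symbols, pRJ-Fr.5; an asterisk marks an adjusted p under 0.05 in limma). For 24 genes the pRJ-Fr.5 points lie above all control points, with pRJ-Fr.5 replicate 1 often nearest to the controls, and in the top row *fbxc-45* has control replicate 3 far from the other arrays.

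The gene *fbxc-34* (*R07C3.5*) had the largest increase among those that passed the threshold. Its level was -2.85, -2.79 and -3.06 in control replicates 1, 2 and 3 and -2.44, -1.85 and -1.73 with pRJ-Fr.5. Every pRJ-Fr.5 array was above every control array, with replicate 1 the nearest to them. The log2 fold change was 0.89 (standard error 0.19), a 1.86-fold increase.

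The gene *fbxc-24* (*R07C3.11*) was the only member with 3 probes above background on all arrays. Its level was -2.15, -2.10 and -2.37 in the control arrays and -1.86, -1.13 and -0.97 with pRJ-Fr.5. The groups did not overlap, but replicate 1 was 0.24 above the highest control array, and replicates 2 and 3 were a further 0.72 and 0.88 above it. The log2 fold change was 0.89 (standard error 0.23), and the 3 probes gave 0.85, 0.90 and 0.91. The probes read the same RNA and are not replicates of the treatment.

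For *fbxc-51* (*Y46B2A.1*) the level was -0.56, -0.51 and -0.63 in the control arrays and -0.17, 0.45 and 0.61 with pRJ-Fr.5. The increase was 1.82-fold (log2 fold change 0.86, standard error 0.19), and again replicate 1 was the lowest of the pRJ-Fr.5 arrays. The adjusted threshold was lost by *fbxc-34* when control replicate 3 (0.81) or pRJ-Fr.5 replicate 2 (0.82) was left out. It was lost by *fbxc-51* when control replicate 1 (0.87), control replicate 3 (0.83) or pRJ-Fr.5 replicate 2 (0.78) was left out. It was lost by *fbxc-24* when any array but pRJ-Fr.5 replicate 1 was left out, with log2 fold changes between 0.71 and 0.94. All 3 genes also lost it within slide 1, when dim probes were not filtered and in the methods' t-test, and *fbxc-24* in the fit with the replicate block. In all, *fbxc-34* passed in 13, *fbxc-51* in 12 and *fbxc-24* in 9 of 18 alternatives.

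The gene *fbxc-39* (*F45D11.10*) had levels of -3.67, -3.59 and -3.66 in the control arrays and -3.10, -2.79 and -2.52 with pRJ-Fr.5, higher by a log2 value of 0.84 (standard error 0.14). The gene *fbxc-25* (*K09F6.8*), with 2 probes, was at -1.72, -1.65 and -1.84 in the control arrays and at -1.20, -0.81 and -0.72 with pRJ-Fr.5, higher by 0.83 (standard error 0.13). For both genes the spread was larger with pRJ-Fr.5 (SD 0.29 and 0.26, n = 3) than in control worms (SD 0.04 and 0.10, n = 3), and the gap between the groups was wider than either.

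A closer grouping of the arrays was seen in *fbxc-21* (*F58E1.11*) and *fbxc-22* (*F58E1.10*), which are next to each other in the genome. The level of *fbxc-21* was -2.67, -2.70 and -2.78 in the control arrays and -2.02, -1.83 and -1.86 with pRJ-Fr.5. That of *fbxc-22* was -4.32, -4.32 and -4.62 in the control arrays and -3.72, -3.51 and -3.63 with pRJ-Fr.5. The lowest pRJ-Fr.5 array was above the highest control array by 0.65 and 0.60, and the SD within a group was 0.06 to 0.17 (n = 3). The log2 fold changes were 0.81 (standard error 0.07) and 0.80 (standard error 0.10), or 1.76-fold and 1.74-fold. Both genes passed the threshold in all 18 alternative analyses with a test. So did *fbxc-9*, *fbxc-14*, *fbxc-18*, *fbxc-25*, *fbxc-26*, *fbxc-29*, *fbxc-31*, *fbxc-38* and *fbxc-39*, which made 11 of the 20 in all. The alternatives share the same arrays and are not independent of one another. No share over all genes is given beside this count, so that nothing is read from it. The size was less stable than the call for 3 of the 11, since with normexp *fbxc-22* had 0.49, *fbxc-9* 0.37 in place of 0.69 and *fbxc-38* 0.24 in place of 0.46.

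Within the pRJ-Fr.5 group the *fbxc* genes tended to be lowest on the same array. Replicate 1 was the lowest of the 3 pRJ-Fr.5 arrays for 25 of the 38 genes, where it was the lowest for 33% of all genes tested. Relative to the control mean of each gene, the median over the 20 genes that rose was 0.52 on replicate 1, 0.86 on replicate 2 and 0.80 on replicate 3. The median SD within the pRJ-Fr.5 group was 0.15 for these 20 genes and 0.10 for all genes, against 0.07 and 0.08 in the control group. Without pRJ-Fr.5 replicate 1 the median log2 fold change over the 38 genes was 0.46. In the control group, replicate 3 was the lowest array for 17 of the 38 genes, against 23% of all genes tested. It was the highest for 11 of the 38, against 51.8% of all genes. For the 20 genes that rose, the median relative to the control mean was 0.02, 0.05 and -0.07 on control replicates 1, 2 and 3. With control replicate 3 left out, the median log2 fold change over the 38 genes was 0.37.

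The arrays lay on 2 slides. On slide 1, with 2 control and 2 pRJ-Fr.5 arrays, the median log2 fold change over the 38 *fbxc* genes was 0.35, and 33 genes were higher with pRJ-Fr.5. On slide 2, with 1 array of each, the median was 0.44, and 32 were higher. The median over all genes was 0.04 on slide 1 and -0.03 on slide 2.

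Of the 20 *fbxc* genes that rose, 16 are on chromosome II, as are 28 of the 38 compared. In the RefSeq annotation 40 of the 56 genes are on chromosome II, 13 on IV, 1 on V and 2 on X. With members joined into a run when no more than 15 genes lay between them, the largest run held 24 *fbxc* genes on chromosome II, from *fbxc-51* to *fbxc-42*, with 21 other genes among them. Of its 16 genes above background, 11 rose and 0 fell, where 10.7% and 19.1% of all genes did. Their log2 fold changes ranged from 0.13 to 0.89 with a median of 0.68. The remaining 5, *fbxc-6*, *fbxc-7*, *fbxc-32*, *fbxc-33* and *fbxc-36*, had values between 0.13 and 0.38.

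The genes that lie between the *fbxc* genes in this run differed in direction. Of the 21, 9 were above background on all arrays, with a median log2 fold change of 0.06, against 0.03 over all genes. Of these 9, *sdz-4* (0.79, adjusted p = 0.00292 from limma) and the F-box pseudogene *fbxa-200* (0.43, adjusted p = 0.00562) rose. The acyl-CoA synthetase gene *acs-15* (-0.68, adjusted p = 0.013 from limma) and *R07C3.13* (-0.66, adjusted p = 0.00602) fell. Of all genes, 10.7% rose and 19.1% fell, so that each share rests on 2 genes and nothing is read from it. On either side of *R07C3.13* lie *fbxc-28*, which rose, and *fbxc-35*, which had no value in the comparison. The run was drawn after the values had been seen, so that its counts are a description.

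**Figure D2:**
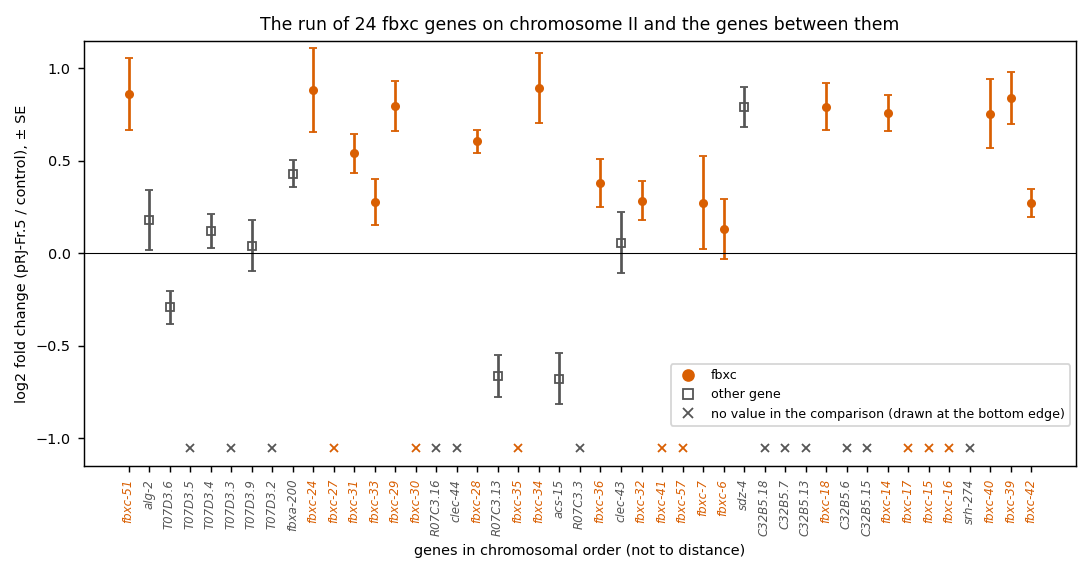
The log2 fold change (pRJ-Fr.5 over control) with its standard error from limma is plotted for the genes of the largest *fbxc* run in their order along chromosome II, without regard to distance (orange circles, *fbxc* genes; open gray squares, other genes; crosses at the bottom edge, genes with no value in the comparison). The 16 *fbxc* genes with a value lie between 0.13 and 0.89, and the 9 other genes lie between -0.68 and 0.79.

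The other neighbors were fewer. The genes *fbxc-21*, *fbxc-22* and *fbxc-26* stand side by side on chromosome II, and their log2 fold changes were 0.81, 0.80 and 0.80. Signal that a probe takes from a near copy was not tested in this or any other run. The pair *fbxc-43* and *fbxc-44* had 0.15 and 0.11, and neither passed the threshold. Of the pair *fbxc-52* and *fbxc-53*, *fbxc-52* rose by 0.29, while *fbxc-53* had 0.57 with a standard error of 0.30. The level of *fbxc-53* was -5.11, -5.22 and -5.24 in the control arrays and -5.26, -4.66 and -3.94 with pRJ-Fr.5. One pRJ-Fr.5 array was thus below the control arrays and another far above them.

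The run on chromosome IV behaved less evenly. It holds 10 *fbxc* genes in a row with no other gene between them, of which 5 had a probe and 4 were above background on all arrays. Their median log2 fold change was -0.03. The gene *fbxc-9* rose by 0.69 (standard error 0.10), *fbxc-4* fell by 0.23 (standard error 0.06), and *fbxc-8* (0.10) and *fbxc-5* (-0.16) did not pass the threshold. The 5 *fbxc* genes to which no probe was matched, *fbxc-1*, *fbxc-2*, *fbxc-3*, *fbxc-10* and *fbxc-11*, are all in this run. Probe sequences were not used here, so that the share of signal that a probe takes from a near copy was not tested.

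Of the 5 *fbxc* genes that were lower on average with pRJ-Fr.5, 2 passed the threshold. The level of *fbxc-48* (*C08G5.2*) was -5.02, -5.36 and -5.27 in the control arrays and -5.74, -5.74 and -5.83 with pRJ-Fr.5, so that the groups did not overlap. Its log2 fold change was -0.55 (standard error 0.10, 0.68-fold). With the normexp background correction it was -0.19 and lost the threshold.

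The level of *fbxc-4* (*C44C8.2*) was 0.66, 0.57 and 0.63 in the control arrays and 0.45, 0.39 and 0.32 with pRJ-Fr.5. Again the groups did not overlap, and the decrease was small, at 0.85-fold. It was past the threshold in 9 of 18 alternatives. It was not past it when any array but pRJ-Fr.5 replicate 1 was left out, with log2 fold changes between -0.26 and -0.20.

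Among the rest, *fbxc-23* (*Y48E1B.11*) was at -4.94, -5.14 and -4.38 in the control arrays and at -5.44, -5.25 and -5.42 with pRJ-Fr.5. Its log2 fold change of -0.55 (standard error 0.19) did not pass the threshold with all arrays and was -0.33 without control replicate 3, its highest array. It was past the threshold without control replicate 2 (-0.71). For *fbxc-58* (*C10C5.2*) the levels were -3.35, -3.21 and -2.95 in the control arrays and -3.31, -3.52 and -3.82 with pRJ-Fr.5. The groups of *fbxc-58* overlapped, and its log2 fold change of -0.38 (standard error 0.16) passed the threshold only without pRJ-Fr.5 replicate 1 (-0.50).

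The largest log2 fold change of any *fbxc* gene rested on 1 spot. The level of *fbxc-45* (*Y54G2A.22*) was -0.06, 0.08 and -4.74 in the control arrays and 0.11, 0.32 and 0.27 with pRJ-Fr.5. Control replicate 3 was far below the other 5 arrays, which lay close together. The log2 fold change of 1.81 had a standard error of 1.23 and did not pass the threshold. Without control replicate 3 it was 0.22.

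Such low spots were mostly on that array. Among probes whose median level on the other arrays was above -5, 257 of 26567 on control replicate 3 were lower than that median by more than a log2 value of 2. On each of the other arrays there were 0 to 22. The 257 included 2 *fbxc* probes, that of *fbxc-45* and 1 of the 3 probes of *fbxc-28* (*R07C3.6*). The latter had a level of -7.08 there, while control replicates 1 and 2 had -0.83 and -0.70, and it was left out because it was not above background there. Within 5 rows and columns of the *fbxc-45* spot, 10 of 68 spots were low on this array in the same way, and 13 of 71 around the *fbxc-28* spot. Neither spot was marked as an outlier in the deposited files. The 2 other probes of *fbxc-28* gave a log2 fold change of 0.61 (standard error 0.06), and with no filter, so that the third probe was included, it was 1.32.

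Where several probes of a gene were kept, they gave near values. For the 6 genes with 2 or 3 kept probes (*fbxc-24*, *fbxc-25*, *fbxc-28*, *fbxc-29*, *fbxc-40* and *fbxc-44*), the log2 fold changes of the probes of a gene differed by between 0.01 and 0.07. A probe that was not kept differed more from the kept probe in *fbxc-37* (0.69 against 0.29) and *fbxc-8* (-0.78, above background on 0 arrays, against 0.10). Without control replicate 3 the 2 probes of *fbxc-37* gave 0.53 and 0.55, and the gene passed the threshold (0.54). The 2 probes of *fbxc-17*, of which neither was kept with all arrays, lay further apart without that array, at 0.46 and 0.88.

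Of the 13 *fbxc* genes without a value in the comparison, 8 were left out because their probes failed the filter on control replicate 3 alone. These were *fbxc-12*, *fbxc-15*, *fbxc-17*, *fbxc-19*, *fbxc-20*, *fbxc-30*, *fbxc-41* and *fbxc-49*. Without control replicate 3, 7 of the 8 were higher after treatment, with log2 differences of 0.46 to 0.80, and *fbxc-49* was lower (-0.67). In the fit without that array, *fbxc-15*, *fbxc-17* and *fbxc-20* did not pass the adjusted threshold, and the other genes of the 8 did. With all 8 genes included and that array left out, 46 *fbxc* genes were compared. Of the 46, 18 passed the adjusted threshold as higher (5.15% of 18491 genes) and 2 as lower (13% of the genes). The median log2 fold change over the 46 was 0.46. Over the 38 genes of the main comparison alone, it was 0.37 without that array and 0.34 with all arrays. Of the 20 genes that rose with all arrays in the fit, 13 were among the 18.

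The array that was left out reversed 1 of the 8. The probe of *fbxc-49* (*T16A1.3*) read -3.99, -4.07 and -6.38 in the control arrays and -4.62, -4.67 and -4.81 with pRJ-Fr.5. With control replicate 3 the mean difference was 0.11 and without it -0.67. The probe of *fbxc-30* (*R07C3.15*), in contrast, read -5.72, -5.68 and -5.70 in the control arrays and -4.92, -4.81 and -4.98 with pRJ-Fr.5. Its mean difference was 0.80 with and without that array.

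**Figure D3:**
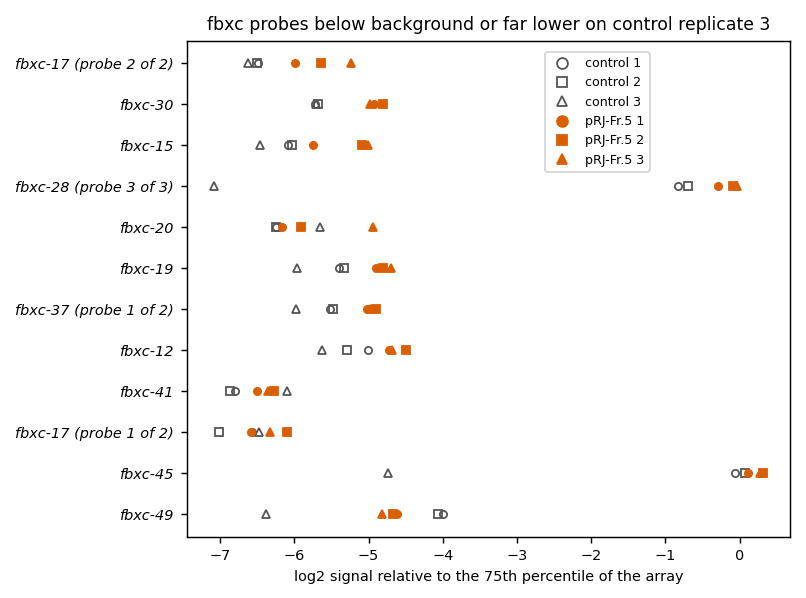
The level (log2 signal relative to the 75th percentile of the array) on each of the 6 arrays is plotted for the *fbxc* probes that were below background on control replicate 3 alone or far lower there than on the other arrays (open gray symbols, control; filled orange symbols, pRJ-Fr.5). For *fbxc-45*, *fbxc-49* and the third probe of *fbxc-28*, the triangle of control replicate 3 lies far to the left of the other arrays, at -4.74, -6.38 and -7.08.

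The remaining 5 genes had little or no signal. No probe of *fbxc-16*, *fbxc-35*, *fbxc-55* or *fbxc-57* was well above background on any array. The probe of *fbxc-27* was well above background on 0 control arrays and 2 of 3 pRJ-Fr.5 arrays, and no fold is given because its pRJ-Fr.5 mean was below the lowest level that can be told from background in the control arrays. Of these 5, 3 (*fbxc-16*, *fbxc-35* and *fbxc-57*) are annotated as pseudogenes.

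Some of the genes annotated as pseudogenes were above background. The annotation lists 8 of the 56 *fbxc* genes as pseudogenes, and 4 of them, *fbxc-6*, *fbxc-37*, *fbxc-38* and *fbxc-46*, were above background on all arrays. So were 34 of the 48 listed as protein-coding, of which 5 had no probe. Whether the probe of a pseudogene took signal from a near copy was not tested. The level of *fbxc-38* (*C02B8.2*) was -5.32, -5.29 and -5.32 in the control arrays and -4.79, -4.88 and -4.87 with pRJ-Fr.5, higher by 0.46 (standard error 0.06). That of *fbxc-46* (*Y37H2A.9*) was -1.54, -1.58 and -1.48 in the control arrays and -1.40, -1.22 and -1.16 with pRJ-Fr.5. Its increase of 0.27 (standard error 0.08) lost the threshold in 11 of the 18 alternatives. In both genes all pRJ-Fr.5 arrays were above all control arrays.

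The subfamilies most like *fbxc* are *fbxa* and *fbxb*. Of the 136 *fbxa* genes above background 22 rose (16.2%) and 17 fell (12.5%), where 10.7% and 19.1% of all genes did, and the median log2 fold change was 0.10. Of the 72 *fbxb* genes 67 rose (93.1%) and 0 fell, with a median of 0.74. Between the quartiles the *fbxc* genes lay between 0.15 and 0.80, the *fbxa* genes between -0.14 and 0.23 and the *fbxb* genes between 0.64 and 0.79. The differences between the subfamilies were not tested.

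F-box proteins need a Skp1 partner, and *C. elegans* has many Skp1-related genes, named *skr*. Of the 19 *skr* genes above background 9 rose (47.4%, against 10.7% of all genes) and 0 fell, with a median log2 fold change of 0.39. Among those past the threshold the largest increases were those of *skr-9* (0.69, standard error 0.08, adjusted p = 0.00213 from limma), *skr-13* (0.69, adjusted p = 0.00203) and *skr-14* (0.63, adjusted p = 0.00206). Next were *skr-12* (0.61, adjusted p = 0.00222), *skr-7* (0.54, adjusted p = 0.00262) and *skr-15* (0.52, adjusted p = 0.00208). The closest relatives of Skp1, *skr-1* (0.12, adjusted p = 0.18) and *skr-2* (0.13, adjusted p = 0.143), did not pass the threshold. The values of *skr-10* (1.21, standard error 0.55) and *skr-21* (0.78, standard error 0.25) were larger than that of *skr-9* but did not pass it either. The control arrays of *skr-10* had an SD of 1.22 and the pRJ-Fr.5 arrays of *skr-21* one of 0.53 (n = 3).

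Of the 12 cullins, RING subunits and activators of the ligase, *cul-1*, the cullin of SCF ligases, rose by 0.27 (standard error 0.06, adjusted p = 0.0174 from limma), and 0 fell. This was 8.33% of the list, near the 10.7% of all genes that rose. The RING subunit *rbx-1* (0.08, adjusted p = 0.383) and the ubiquitin-like modifier *ned-8* (0.09, adjusted p = 0.345) did not pass the threshold. The cullin *cul-6*, which acts with *skr-3*, *skr-4* and *skr-5* in the response to intracellular infection, had a log2 fold change of -0.23 (adjusted p = 0.162), *skr-3* one of -0.13 (adjusted p = 0.16) and *skr-4* one of 0.05 (adjusted p = 0.672). Of the 31 partner genes together 10 rose (32.3%, against 10.7% of all genes). This count was 6 without control replicate 1, control replicate 2 or pRJ-Fr.5 replicate 2, where 3096, 3027 and 2750 of all genes passed in either direction in place of 4788.

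Among 11 F-box genes with a described function, 2 rose (18.2%) and 1 fell (9.09%), where 10.7% and 19.1% of all genes did, so that each share rests on 1 or 2 genes and nothing is read from it. The gene *dre-1*, which times developmental transitions, fell by 0.23 (standard error 0.07, adjusted p = 0.0399 from limma). The genes *fbxl-1* (0.49, adjusted p = 0.0282) and *mfb-1* (0.45, adjusted p = 0.0488) rose. The genes *sel-10*, a regulator of Notch signaling (0.16, adjusted p = 0.103), *lin-23*, which restrains cell division (0.16, adjusted p = 0.0847), and *fog-2*, which permits sperm to be made in hermaphrodites (0.20, adjusted p = 0.0544), did not pass the threshold. The number past it was 1 with control replicate 1 left out, and 0 with any of replicates 2 and 3 of either group left out.

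**Figure D4:**
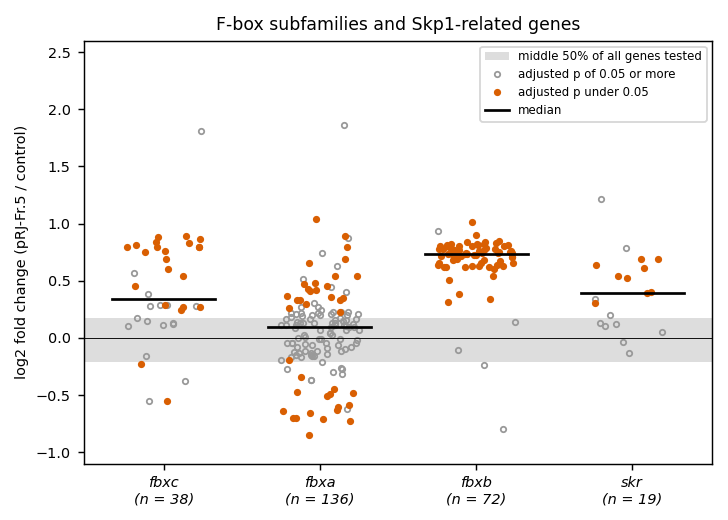
Each point is the log2 fold change (pRJ-Fr.5 over control) of 1 gene in the *fbxc*, *fbxa*, *fbxb* and *skr* families, spread sideways for clarity (filled orange, adjusted p under 0.05 in limma; open gray, not; black line, median; gray band, the range between the quartiles of all 16050 genes tested). The *fbxb* genes lie mostly around their median of 0.74, whereas the *fbxc* genes spread from -0.55 to 0.89, apart from *fbxc-45* at 1.81.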

How the data were processed

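Members and gene lists were chosen with earlier results of these arrays known. For each 1-color Agilent array the authors deposited spot intensity values from Feature Extraction 10.7.1.1 (background subtracted, no normalization between arrays) with quality flags, and a series table that holds a linear ratio, each signal over the 75th percentile for that array. From the intensities, after removal of control spots and spots marked as outliers, the mean per probe was put on the log2 scale and shifted by the 75th percentile of each array, as in the methods. A probe was kept when well above background on all 6 arrays (27518 of 43603 probes), and kept probes of a gene were averaged. Symbols came from RefSeq (WBcel235) by sequence name, which matched 80% of the probes. The array was annotated on another build, so that only names, chromosomes and neighbors were taken, and no coordinates are given. Promoter and protein sequences were not analysed here.

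The comparison used lmFit and eBayes of limma 3.58.1 (R 4.3.3) without a block, with Benjamini-Hochberg adjustment over 16050 genes and a threshold of 0.05. With 3 arrays against 3 the smallest exact permutation p is 0.1, and no such test was used. The number of arrays limits the precision. The fit was tested on simulated data with independent noise for each gene. That simulation had no array that stood apart and no shift as small as the *fbxc* changes called here. It is therefore no check on these values. No spot was saturated, and replicates differed by a median absolute log2 value of 0.09 to 0.15, so that none was a copy. Values on every array are given for the 8 largest increases, the genes past the threshold as lower, the 3 lowest log2 fold changes and the genes with 3 kept probes. Values on every array of *fbxc-30*, *fbxc-38*, *fbxc-46*, *fbxc-49* and *fbxc-53* were chosen for printing after they were seen. Of the partner lists the 6 largest changes past the threshold are named, and the other partner genes were picked with their values in view. Alternatives were the methods' t-test, normexp, other scalings, the series table, other filters on dim probes, blocks for replicate number or slide, each slide alone, the brightest probe and each array left out in turn, with the filter then applied to the remaining arrays.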

Additional observations from a re-analysis of the deposited data

How the results depend on the processing

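The *fbxc* count past the adjusted threshold was 20 higher and 2 lower, with a median of 0.34. Without a filter on dim probes it was 13 higher and 1 lower among 51 genes. In that fit 2671 of 24648 genes passed in either direction, in place of 4788 of 16050. The count lower was also 1 with normexp, the shift to the median, the replicate block and within slide 1. The median was 0.47 with detection in all arrays of 1 group, where 46 genes had a value. The 8 added genes were above background on all pRJ-Fr.5 arrays but not on all control arrays, so that this filter admitted them through the pRJ-Fr.5 group and the rise of the median is no support. It was 0.44 within slide 2. With each array left out, 12 to 21 were higher, 1 to 3 lower, the median was 0.31 to 0.46, and 2750 to 5510 of all genes passed. These values cover 46 *fbxc* genes without control replicate 3 and 38 with any other array left out. Over the same 38 genes the median without control replicate 3 was 0.37. Partner genes that rose numbered 10, were 6 without a filter and 6 to 13 with an array left out. F-box genes with a described function past the threshold numbered 3. They were 0 without a filter, with the replicate block and in the methods' t-test, 1 with detection in 1 group and within slide 1, and 0 to 2 with an array left out. The *fbxa* median of 0.10 was 0.14 with the shift to the median and 0.025 without a filter (0.053 to 0.10 with an array left out), and the *fbxb* median of 0.74 was 0.52 with normexp (0.68 to 0.81). The cause of these changes was not tested. Of the 12 genes described on every array by rule, 0 changed sign in any alternative.

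With the replicate number as a block, 16 *fbxc* genes were higher, and 3199 of all genes passed. The deviations of arrays with the same number correlated at -0.22, 0.06 and -0.01, and those with different numbers at -0.12 to 0.13, so that the numbers were not taken as pairs. The dim probes limit the 13 genes without a value, 8 of them through control replicate 3.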
